A study of Homo sapiens with 6 samples.

Results

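The genes described here are 8 whose alternative exons the study assayed by RT-PCR as splicing targets of PTBP1: BRD1, CD44, DAG1, MAP4K2, MAP2K5, PYCR1, ROBO1 and SIRT7. They were chosen by name from the genes with splicing primers in the study's primer list, whose remaining genes were not analysed here, and each was found under 1 identifier among the 58825 genes of the deposited table. RNA was sequenced from MHCC97H, an established human hepatocellular carcinoma line, in 6 libraries: 3 labelled shControl (genotype WT) and 3 labelled shPTBP1 (genotype PTBP1 Knockdown), both groups carrying a short hairpin RNA. The labels do not name the hairpin, do not say whether a group is 1 clone or several cultures, and number the libraries 1 to 3 without saying what a number marks, so that p-values here measure the spread between these libraries, which may be technical. The question that the gene-level values can answer is how abundant the mRNA of each splicing target was, and whether its total level differed between the groups. The values sum over all isoforms of a gene, so they say nothing about which exons were included.

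PTBP1 binds pyrimidine-rich stretches of pre-mRNA and can repress or promote the use of nearby exons, so a target of its splicing activity can change its isoforms while its total mRNA stays level. A shift in total mRNA can accompany a splicing change when one isoform carries a premature stop codon and is degraded. The 8 targets have unrelated roles. DAG1 (dystroglycan), CD44 (a hyaluronan receptor) and ROBO1 (a receptor for SLIT ligands) sit at the cell surface. MAP4K2 and MAP2K5 are protein kinases, BRD1 and SIRT7 act on chromatin, and PYCR1 makes proline in mitochondria.

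The primers place 4 of the targets on the genome. They were compared with the GENCODE release 29 transcripts of each gene, which are on GRCh38, the assembly also called hg38. Of 16 primers for the 8 genes, 2 matched a transcript of their gene over their whole length and 14 did not, the longest unbroken match of the latter being 8 to 22 bases. Introns were not searched, since only transcript sequences were used. The first 5 primers below are those with at least 14 matched bases, and the DAG1 pair is shown because DAG1 is the gene whose level varied most. The DAG1 primers each shared a run of only 10 bases, under the 14 required here, and were given no position. Capitals mark the longest run that each primer shares with the gene's transcripts, in either orientation, and the sequences run 5′ to 3′.
MAP2K5 reverse: AGTGCTAACTCCAAAATCA
PYCR1 reverse: ATGCCTGGACCCTCTGG
CD44 forward: CTCATTGCCCAGCGGACCCCAGact
SIRT7 forward: ctaCCGTGTGAGGCGGAAGCagaag
SIRT7 reverse: gcgTCCCAGTTCAAAGG
DAG1 forward: aGGAAGAAACCgacggagcgaggac
DAG1 reverse: ctgggagAGACAGTCGTat

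The MAP2K5 reverse primer lay in coding exon 14 of the 22 exons of transcript MAP2K5-201, at chr15:67692531-67692549, and the primer list names exons 13 and 14 for this gene. The PYCR1 reverse primer lay in the untranslated part of exon 7, the last of PYCR1-201, at chr17:81932745-81932761, where the list names exon 8. This primer matched 5 of the 17 PYCR1 transcripts over its whole length, and also a transcript of another gene, AC145207.4. Each exon number here is that of the transcript named, and other transcripts may number it differently. The CD44 forward primer shared 22 of its 25 bases with the untranslated part of exon 1 of CD44-201, at chr11:35139171-35139192, where the list names exon 15. The SIRT7 primers, listed for exon 6, shared 17 bases with exon 1 and 14 bases with exon 7 of the 10 exons of SIRT7-201, at chr17:81918157-81918173 and chr17:81914355-81914368. The transcript by which the list numbers its exons is not given in the sources used here. A run of letters that is missing from these transcripts says nothing about the RT-PCR products.

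Deposited counts summed to between 68704509 and 85317970 per library. PTBP1 itself had 21.2, 16.4 and 27.4 FPKM (fragments per kilobase of transcript per 1000000 fragments) in shControl 1, 2 and 3 and 17.3, 16.9 and 18 FPKM in the libraries labelled shPTBP1. Its log2 fold change, shPTBP1 minus shControl, was -0.29 (95% interval -0.71 to 0.13, adjusted p = 0.953 by edgeR's quasi-likelihood test). In these libraries the groups were thus not separated in the targeted mRNA, and the directions below are between libraries as labelled. The paper reports a check of its PTBP1 hairpins in MHCC97H cells by western blot and RT-qPCR. Whether that check used the sequenced cultures is not given in the sources used here. Of 10 hepatocyte and HCC markers, KRT8 and KRT18 were at 308 CPM (counts per 1000000) or more in every library, while ALB, AFP, TTR and FGB had no count in any library. The remaining markers were low in every library, with SERPINA1 at 1.31 CPM or less and APOA1, APOA2 and GPC3 at 0.318 CPM or less. Summed red-cell markers, mostly HBB, HBA1 and HBA2, were at 757 to 1270 CPM in the 4 libraries numbered 1 and 2 and at 1.35 and 1.13 CPM in shControl 3 and shPTBP1 3. Summed leukocyte markers were at 18.5 to 31.6 CPM in the former and at 0.391 and 0.163 CPM in the latter. Summed markers of other cell types ran over the 6 libraries from 85.5 to 128 CPM for fibroblast and stellate cells, from 1.66 to 12.3 CPM for endothelium and from 29.5 to 54 CPM for neurons. The fibroblast and stellate sum was mostly COL1A1 (74.1 to 111 CPM), with PDGFRB at 9.33 to 18.9 CPM. COL1A2 had no count and DCN was below 1 CPM in every library. The neuron sum was mostly SNAP25 (28.5 to 53.1 CPM), with SYT1 and RBFOX3 below 1 CPM in every library. The libraries numbered 3 stood apart from the rest in their blood-cell transcripts in both groups, and results are also given for the libraries numbered 1 and 2 alone.

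None of the 8 splicing targets passed an adjusted p under 0.05 between shPTBP1 and shControl in edgeR, against 0.0309% of the 19393 genes tested. All 8 passed the filter on low counts and were tested. At an unadjusted p under 0.05 there was 1 target, ROBO1, which was higher in shPTBP1, against 5.69% of all genes tested in either direction and 3.58% higher. DESeq2 also called 0 of the 8, against 0.726% of its genes, and limma on log2(FPKM + 1) called 0, against 0.0749%. Each had 1 target at an unadjusted p under 0.05, against 4.42% of genes in DESeq2 and 6.91% in limma. The study picked these genes for their splicing from the same libraries, so their counts are not independent evidence on gene levels. In every target the FPKM ranges of the groups overlapped. The groups did not overlap for 11.9% of all genes tested, a share too low for 8 targets to show a difference from it. The log2 fold changes were positive in 4 targets and negative in 4, with a median of 0.01. Over all genes tested 48% were positive and the median was -0.01. For 6 of the targets the 95% interval lay between -1 and 1 on the log2 scale, so that a 2-fold difference in total mRNA was outside the interval. The exceptions were ROBO1 and DAG1.

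By median FPKM over the 6 libraries, which is per length and can be set side by side between genes, the order was DAG1 (51.8), PYCR1 (28), CD44 (14.1), ROBO1 (5.71), BRD1 (4.21), MAP2K5 (3.22), SIRT7 (3.20) and MAP4K2 (1.44). PYCR1 lay above CD44, CD44 above ROBO1 and SIRT7 above MAP4K2 in all 6 libraries. ROBO1 lay above BRD1 and BRD1 above MAP2K5 in 5 of 6, and MAP2K5 above SIRT7 in 4 of 6, with overlapping ranges in each of these pairs. DAG1 was the highest of the 8 in the 4 libraries numbered 1 and 2, and the lowest or second lowest in the libraries numbered 3. The highest library exceeded the lowest by 38.0-fold in DAG1 and by 1.36-fold to 2.24-fold in the other 7 targets.

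**Figure D1:**
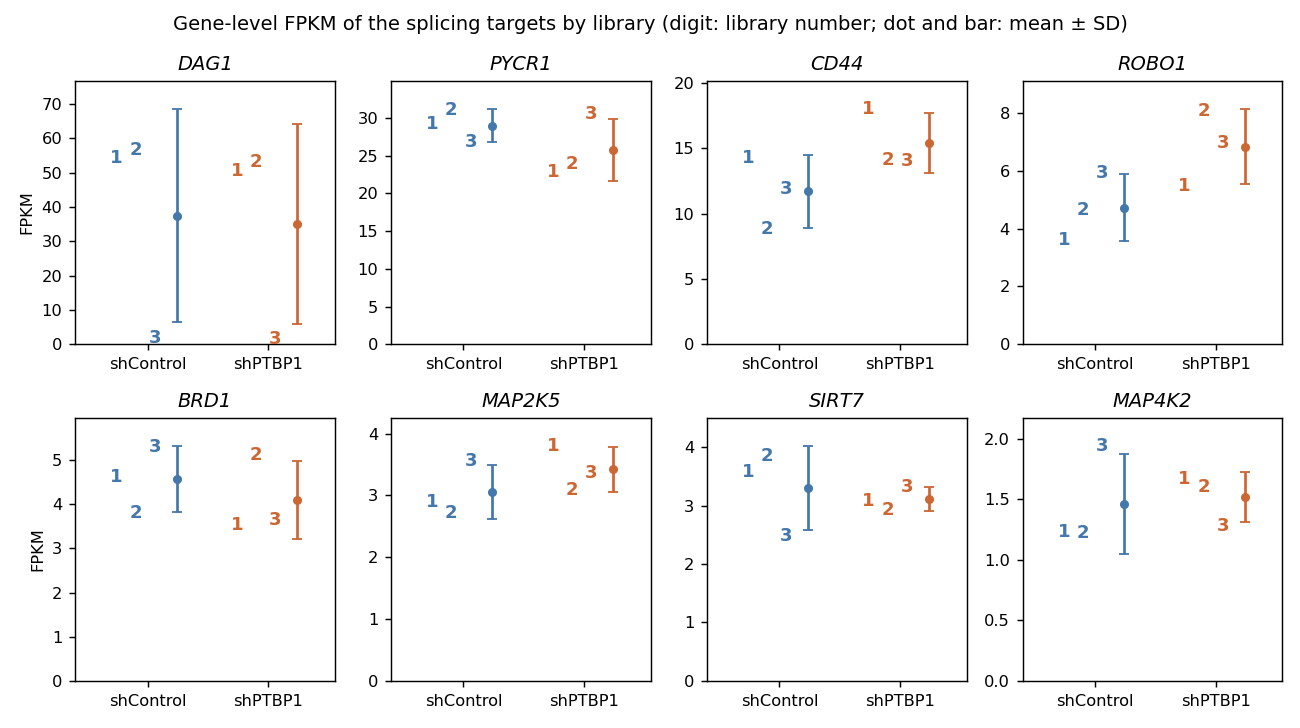
FPKM of the 8 splicing targets in the 6 MHCC97H libraries, 1 panel per gene, with the library number drawn at its value and the mean ± SD (n = 3) beside each group. The groups overlap in every panel, and DAG1 is at 50.6 to 56.6 FPKM in the libraries numbered 1 and 2 and at 1.74 and 1.49 FPKM in those numbered 3.

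DAG1 encodes dystroglycan, which is cleaved into an extracellular part that binds laminin and a membrane-spanning part that binds dystrophin or utrophin, and so links the basement membrane to the cytoskeleton. The gene (ENSG00000173402) lies on chromosome 3 of hg38 from 49468703 to 49535618, with 22 transcripts listed. It had 54.3 and 56.6 FPKM in shControl 1 and 2 but 1.74 FPKM in shControl 3, and 50.6 and 53.0 FPKM in shPTBP1 1 and 2 but 1.49 FPKM in shPTBP1 3. The split followed the library number and not the hairpin.

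In TMM-normalized CPM (scaled by the trimmed mean of M-values), DAG1 was 32.5-fold lower in shControl 3 than the mean of shControl 1 and 2, and 34.0-fold lower in shPTBP1 3 than the mean of shPTBP1 1 and 2. The counts behind these levels were 30755, 39929, 33303 and 33914 in the libraries numbered 1 and 2 and 990 and 908 in those numbered 3. This pattern was seen in the values and is described without a test. Among tested genes, DAG1 fell from the 96.2th to 96.6th percentile of FPKM in the libraries numbered 1 and 2 to the 45.8th and 44.8th in those numbered 3.

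Across all genes tested, 0.0619%, or 12 genes, had both libraries numbered 3 at least 4-fold apart from all the others, and 0.0567% had them lower, with at least 2 CPM in the higher libraries. DAG1 was the only splicing target among them. Of the 12, 7 were red-cell or leukocyte markers from the fixed lists, HBB among them with 474 to 811 TMM-normalized CPM in the libraries numbered 1 and 2 and 0.566 and 0.597 CPM in those numbered 3. RHOQ, a small GTPase, was the gene whose pattern was most like that of DAG1 over the 6 libraries among 11985 genes with a mean of at least 1 FPKM (Pearson r 0.999 of log2 CPM). RHOQ had 57.4 to 65.4 CPM in the libraries numbered 1 and 2 and 6.75 and 6.72 CPM in those numbered 3. That likeness rests on the libraries numbered 3, and what a number marks is not given in the sources used here. Whether the blood-cell transcripts that move with the same libraries have a part in the DAG1 values was not tested.

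**Figure D2:**
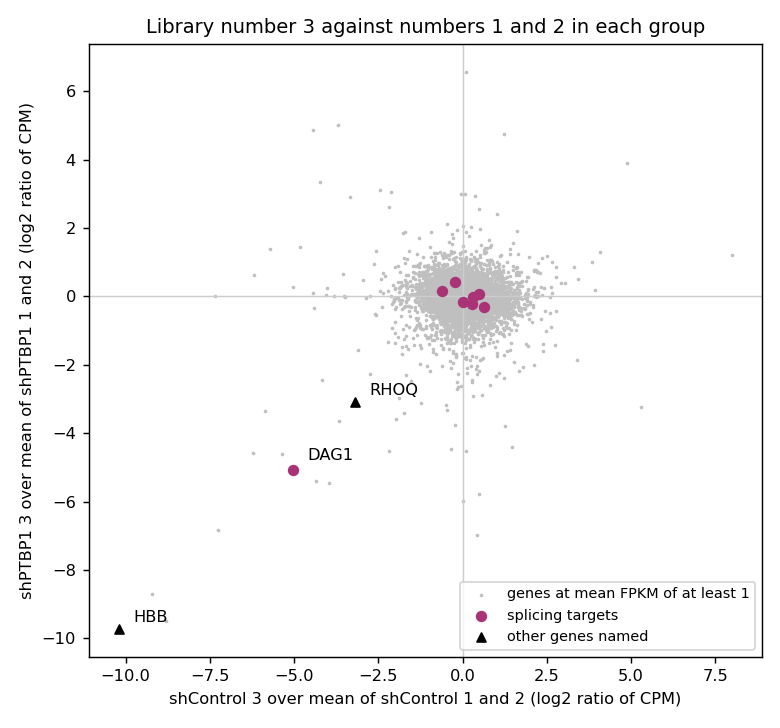
Log2 ratio of TMM-normalized CPM of library number 3 over the mean of numbers 1 and 2, in shControl (horizontal) and in shPTBP1 (vertical), for 11958 genes with a mean of at least 1 FPKM and a count in every library (grey), with the splicing targets in purple. DAG1 lies at -5.02 and -5.09, and RHOQ, with a smaller fall, at -3.19 and -3.10. The other 7 targets lie between -0.61 and 0.63 on both axes.

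No gene with a count overlapped the DAG1 locus. Among 6 tested genes within 100 kb of it, the ratio of library number 3 to the mean of numbers 1 and 2 ran from 0.346 to 1.48. RHOA, the most abundant of these neighbours, had 446 to 496 CPM in the libraries numbered 1 and 2 and 476 and 535 CPM in those numbered 3. None of these neighbours fell as far as DAG1 did.

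Because of this split, the interval of DAG1 over all libraries was wide, with a log2 fold change of -0.09 and a 95% interval of -3.27 to 3.08 (adjusted p = 0.998 in edgeR). The spread of DAG1 within groups, an SD of 2.92 in log2 CPM, was larger than that of 99.7% of the genes tested, whose median was 0.31. In the libraries numbered 1 and 2 alone, DAG1 was at -0.09 on the log2 scale with a 95% interval of -0.29 to 0.11 (adjusted p = 0.601 in edgeR). Between shControl 3 and shPTBP1 3, with no test, the log2 ratio was -0.15.

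The partners of dystroglycan showed no split of that size. Of 24 genes of the dystrophin-associated complex and of the enzymes that build the laminin-binding sugar of dystroglycan, 22 were tested, and 0 had both libraries numbered 3 at least 4-fold apart from the rest. In the 18 with at least 2 CPM in every library, the log2 ratio of library number 3 to the mean of numbers 1 and 2 ran from -1.92 to 1.51. Between the hairpins, edgeR called 0 of these 22 genes at the adjusted threshold, 12 had a positive log2 fold change, and their median was 0.02 beside -0.01 over all genes. DTNA, a dystrobrevin that binds dystrophin, had 1.96, 2.39 and 3.31 CPM in the shControl libraries and 1.22, 0.978 and 0.833 CPM in the shPTBP1 libraries, a log2 fold change of -1.33 (adjusted p = 0.462 in edgeR). DESeq2 called DTNA lower (log2 fold change -1.33, adjusted p = 0.0467), at these low levels. SGCA, a sarcoglycan, was at 0.605 CPM or less in every library. AGRN, agrin, a ligand of dystroglycan, had 74.2, 84.1 and 129 CPM in the shControl libraries and 122, 133 and 150 CPM in the shPTBP1 libraries (log2 fold change 0.49, adjusted p = 0.891 in edgeR).

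ROBO1 was the splicing target with the largest difference between the hairpins. It encodes a transmembrane receptor of the immunoglobulin superfamily that binds SLIT ligands and is known for steering axons and migrating cells. The gene (ENSG00000169855) lies on chromosome 3 from 78597239 to 79767998, with 13 transcripts listed, and exon 22 is the one named in the primer list. It had 3.60, 4.64 and 5.94 FPKM in shControl 1, 2 and 3 and 5.48, 8.07 and 6.98 FPKM in shPTBP1 1, 2 and 3. The groups overlapped through shControl 3, which lay above shPTBP1 1.

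ROBO1 averaged 4.73 ± 1.17 FPKM over the shControl libraries and 6.84 ± 1.30 FPKM over the shPTBP1 libraries (SD, n = 3 each). Its log2 fold change was 0.57 (standard error 0.21, 95% interval 0.07 to 1.06, unadjusted p = 0.0295 and adjusted p = 0.822 in edgeR). Within the libraries numbered 1 and 2 it was 0.73 (adjusted p = 0.220 in edgeR), and shPTBP1 3 over shControl 3 was 0.30 on the log2 scale. Over 17 alternative fits the log2 fold change of ROBO1 ran from 0.41 to 0.75, and the adjusted p from 0.152 to 1. SREBF1, which encodes a transcription factor of lipid synthesis, had the most similar pattern over the 6 libraries (Pearson r 0.994). That r was the highest of 11985 genes compared, and such a maximum over 6 libraries is not evidence of a link.

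Of 13 genes of SLIT-ROBO signalling, 11 were tested and 0 passed the adjusted threshold in edgeR. GPC1, a heparan sulfate proteoglycan that binds SLIT, had the smallest p-value of these, with 23.2, 16.3 and 26.8 CPM in the shControl libraries and 40.7, 34.2 and 40.9 CPM in the shPTBP1 libraries. Every shPTBP1 library lay above every shControl library, at a log2 fold change of 0.80 (unadjusted p = 0.00497, adjusted p = 0.554 in edgeR). The groups did not overlap, in either direction, for 11.9% of all genes tested, and GPC1 was named for its p-value. The kinase ABL1 was at 0.21 and SRGAP1, a GTPase-activating protein that binds ROBO receptors, at 0.20 on the log2 scale, with adjusted p = 0.953 and 0.982 in edgeR. The median of the list was 0.06.

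CD44 is the main cell-surface receptor for hyaluronan, and its variant exons are a standard example of regulated splicing in carcinoma cells. The gene (ENSG00000026508) lies on chromosome 11 from 35138870 to 35232402, with 39 transcripts listed, the most of the 8 targets. It had 14.3, 8.81 and 11.9 FPKM in shControl 1, 2 and 3 and 18, 14.1 and 14 FPKM in shPTBP1 1, 2 and 3. Only shControl 1 reached the range of the shPTBP1 libraries. The log2 fold change was 0.42 (standard error 0.20, 95% interval -0.05 to 0.89, adjusted p = 0.899 in edgeR). It was 0.48 within the libraries numbered 1 and 2 (adjusted p = 0.432 in edgeR), 0.31 between shControl 3 and shPTBP1 3, and 0.26 to 0.61 over the 17 alternative fits.

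Leukocytes also express CD44, so its levels are given beside theirs. In TMM-normalized CPM, CD44 was at 172, 104 and 138 in shControl 1, 2 and 3 and at 216, 168 and 171 in shPTBP1 1, 2 and 3. The summed leukocyte markers were at 31.6, 20 and 0.391 CPM and at 21.2, 18.5 and 0.163 CPM in the same order. In both groups library 1 exceeded library 2 in CD44 and in these markers, while in the libraries numbered 3 the markers were below 1 CPM and CD44 was at 138 and 171 CPM. The part of leukocyte transcripts in the CD44 values was not tested. Of 15 genes of CD44 ligands, linkers and splicing, 12 were tested and 0 passed the adjusted threshold in edgeR. HMMR, another hyaluronan receptor with a role in mitosis, had 60.0, 61.9 and 60.0 CPM in the shControl libraries and 50.9, 44.8 and 47.2 CPM in the shPTBP1 libraries, a log2 fold change of -0.35 (unadjusted p = 0.00994, adjusted p = 0.641 in edgeR). MSN (moesin) and RDX (radixin), which tether CD44 to actin, were at -0.16 and -0.19 on the log2 scale, with adjusted p = 0.933 and 0.953 in edgeR.

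The kinases were among the lowest targets. MAP4K2, also called germinal center kinase, acts upstream of the JNK cascade, and MAP2K5 (MEK5) phosphorylates ERK5, the product of MAPK7. MAP4K2 (ENSG00000168067, chromosome 11 from 64784918 to 64803214) had 1.23, 1.22 and 1.94 FPKM in shControl and 1.67, 1.60 and 1.28 FPKM in shPTBP1. The highest and the third lowest values belonged to the libraries numbered 3, shControl 3 and shPTBP1 3. The log2 fold change was 0.08 (95% interval -0.44 to 0.60, adjusted p = 0.992 in edgeR), but 0.42 within the libraries numbered 1 and 2 (95% interval 0.07 to 0.78, unadjusted p = 0.0278, adjusted p = 0.228 in edgeR) and -0.53 between shControl 3 and shPTBP1 3.

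MAP2K5 (ENSG00000137764, chromosome 15 from 67542703 to 67807114) had 2.89, 2.72 and 3.55 FPKM in shControl and 3.80, 3.09 and 3.36 FPKM in shPTBP1. Its spread within groups was the smallest of the 8 targets, an SD of 0.17 in log2 CPM. The log2 fold change was 0.19 (95% interval -0.18 to 0.57, adjusted p = 0.961 in edgeR), while numbers 1 and 2 alone gave 0.31 (adjusted p = 0.406 in edgeR). Of 14 tested genes of the MAP4K kinases and JNK module and 10 of the MEK5-ERK5 module, edgeR called 0, and none reached an unadjusted p under 0.05. The medians of these lists were 0.01 and 0.00. MAP4K5, a kinase of the same family as MAP4K2, was at 0.24 (adjusted p = 0.933 in edgeR), and MEF2D, a transcription factor that ERK5 phosphorylates, at -0.23 (adjusted p = 0.895 in edgeR).

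BRD1 is a bromodomain scaffold of a histone H3 acetyltransferase complex, and SIRT7 is a deacetylase of the nucleolus that acts on histone H3 and on ribosomal RNA synthesis. BRD1 (ENSG00000100425, chromosome 22 from 49773283 to 49827512) had 4.62, 3.80 and 5.29 FPKM in shControl and 3.52, 5.11 and 3.65 FPKM in shPTBP1. Its highest values were in shControl 3 and shPTBP1 2 and the groups overlapped widely. The log2 fold change was -0.13 (95% interval -0.58 to 0.32, adjusted p = 0.982 in edgeR). Of 10 tested genes that encode subunits of the BRD1 complex or scaffolds of related acetyltransferase complexes, 5 had a positive log2 fold change and 0 passed in edgeR, with JADE1, one of the latter, at 0.43 (adjusted p = 0.948 in edgeR).

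SIRT7 (ENSG00000187531, chromosome 17 from 81911939 to 81918176) had 3.57, 3.84 and 2.48 FPKM in shControl and 3.08, 2.92 and 3.32 FPKM in shPTBP1. The shPTBP1 libraries lay inside the shControl range, which shControl 3 set at its low end. The log2 fold change was -0.06 (95% interval -0.52 to 0.40, adjusted p = 0.995 in edgeR), with -0.29 within the libraries numbered 1 and 2 (adjusted p = 0.312 in edgeR) and 0.49 between shControl 3 and shPTBP1 3. Of 11 tested sirtuins and genes of RNA polymerase I transcription, 2 had a positive log2 fold change, beside 48% of all genes tested. Their median was -0.17, beside -0.01 over all genes, and whether the list differs from all genes was not tested. In edgeR 0 passed the threshold and 0 had an unadjusted p under 0.05. SIRT5, a mitochondrial sirtuin, was at -0.21 and RRN3, an initiation factor of RNA polymerase I, at -0.20, with adjusted p = 0.953 and 0.957 in edgeR.

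PYCR1 catalyses the last step of proline synthesis in mitochondria. The gene (ENSG00000183010) lies on chromosome 17 from 81932384 to 81941079, close to SIRT7. It had 29.2, 31.1 and 26.8 FPKM in shControl and 22.9, 23.9 and 30.6 FPKM in shPTBP1. In the libraries numbered 1 and 2 both shPTBP1 values lay below both shControl values, and shPTBP1 3 lay above shControl 3.

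The log2 fold change of PYCR1 was -0.14 (95% interval -0.48 to 0.20, adjusted p = 0.975 in edgeR). Within the libraries numbered 1 and 2 it was -0.36 (95% interval -0.58 to -0.13, unadjusted p = 0.00986, adjusted p = 0.164 in edgeR), and between shControl 3 and shPTBP1 3 it was 0.26. Of 8 tested genes of proline metabolism, 5 had a positive log2 fold change and 0 passed in edgeR. PRODH, which begins proline breakdown, had 2.41, 1.42 and 3.17 CPM in the shControl libraries and 3.23, 3.54 and 4.54 CPM in the shPTBP1 libraries, a log2 fold change of 0.69 (adjusted p = 0.913 in edgeR). OAT, which links ornithine to proline, was at -0.20 (adjusted p = 0.933 in edgeR).

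**Figure D3:**
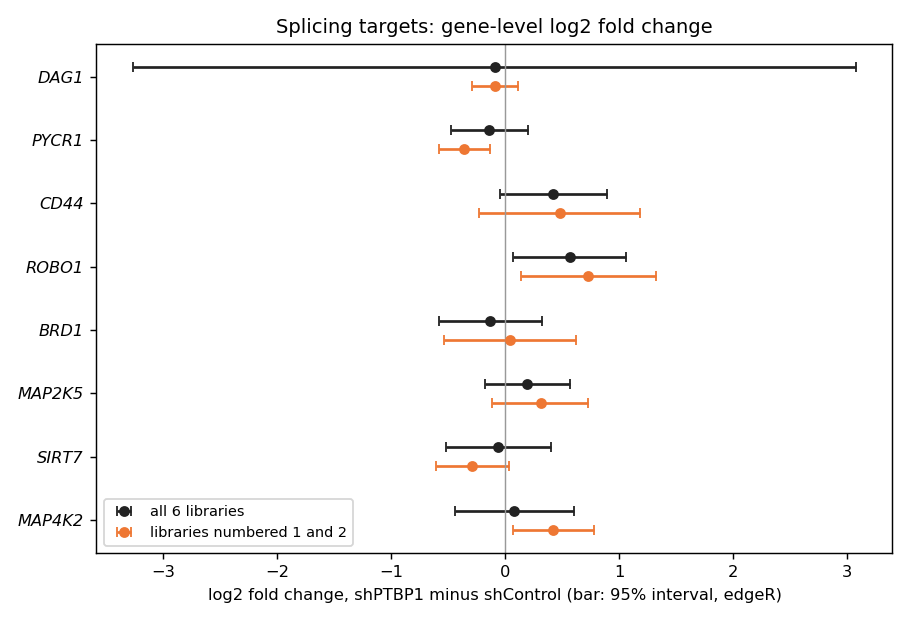
Log2 fold change (shPTBP1 minus shControl, horizontal) of the 8 splicing targets from edgeR with its 95% interval, over all 6 libraries (black) and over the 4 libraries numbered 1 and 2 (orange). The interval of DAG1 shrinks from -3.27 to 3.08 over all libraries to -0.29 to 0.11 in those numbered 1 and 2, and the interval of ROBO1 lies above 0 in both.

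Within the libraries numbered 1 and 2, 3 of the 8 targets had an unadjusted p under 0.05 in edgeR (ROBO1 and MAP4K2 higher, PYCR1 lower), against 17.7% of the 19733 genes tested there, 10.3% higher and 7.46% lower, and 0 passed the adjusted threshold, against 0.319%. In 5 targets (BRD1, MAP4K2, MAP2K5, PYCR1 and SIRT7) the difference between shControl 3 and shPTBP1 3 had the opposite sign to that within numbers 1 and 2, although for MAP2K5 the former was only -0.01 and for BRD1 the latter only 0.04. ROBO1, CD44 and DAG1 had the same sign in both. With 1 library of each hairpin, the libraries numbered 3 allow no test of these differences.

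Across the 6 libraries the targets did not follow 1 common pattern. Pearson r of log2 CPM between pairs of targets ran from -0.95 (MAP4K2 and SIRT7) to 0.71 (CD44 and MAP2K5). These values are a description over 6 libraries that hold the split by number. The genes most like the others were ACTR1B for MAP4K2 (r 0.997), DDX52 for SIRT7 (0.998), ZNF532 for PYCR1 (0.991), SDHA for CD44 (0.990), FBXO41 for BRD1 (0.989) and SDF2L1 for MAP2K5 (0.989), each the highest of 11985 genes compared. A maximum picked from so many genes over 6 libraries is high by selection and is not evidence of a link. For CD44 and SDHA the Spearman correlation was 0.771. FBXO41 ran from 3.63 to 39 CPM, while BRD1 ran from 24.7 to 35.9 CPM.

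For comparison, 15 genes whose exons PTBP1 is known to regulate in other cells were all tested, and 0 passed the adjusted threshold in edgeR. Among them 5 had a positive log2 fold change, beside 48% of all genes tested, with a median of -0.08 beside -0.01. ACTN1, the actin crosslinker alpha-actinin, had 226, 195 and 190 CPM in the shControl libraries and 243, 273 and 290 CPM in the shPTBP1 libraries (log2 fold change 0.40, unadjusted p = 0.0112, adjusted p = 0.667 in edgeR). PTBP2, the neuronal paralog of PTBP1, had 31.2, 28.7 and 9.2 CPM in shControl 1, 2 and 3 and 59, 62.6 and 50.5 CPM in shPTBP1 1, 2 and 3. Its groups did not overlap, as in 11.9% of all genes tested in either direction. In PTBP2 shControl 3 was the lowest library, at a log2 fold change of 1.32 (unadjusted p = 0.0152, adjusted p = 0.718 in edgeR). PTBP3, another paralog, was at -0.15 (adjusted p = 0.971 in edgeR). Over all 9 lists, 6 of 113 tested genes (5.31%) had an unadjusted p under 0.05 in edgeR, beside 5.69% of all genes tested.

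**Figure D4:**
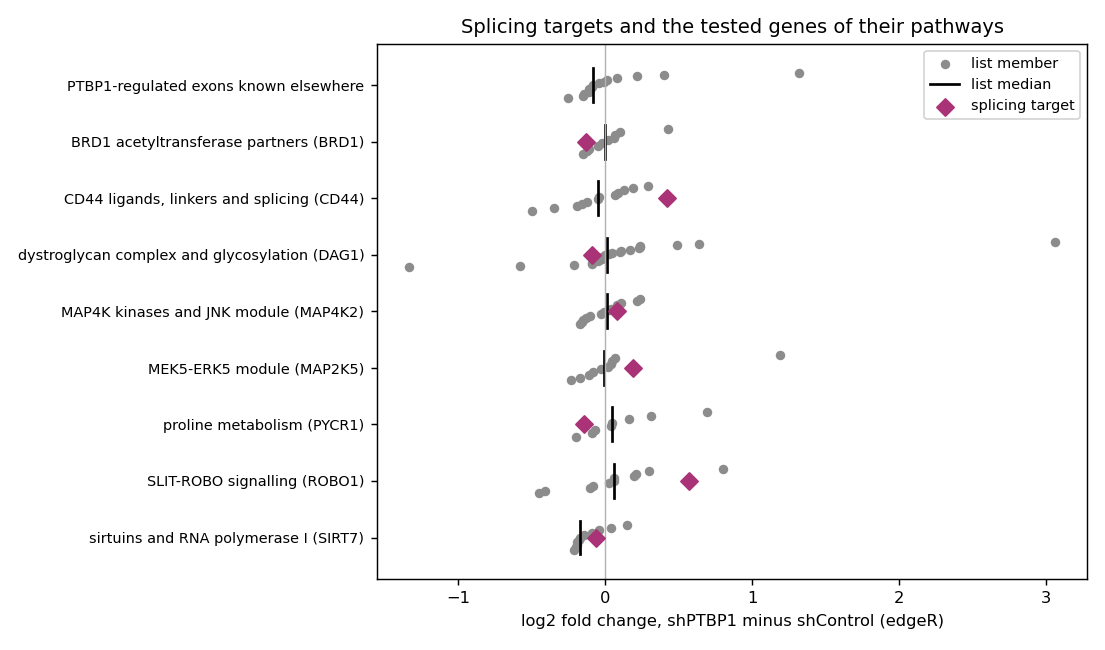
Log2 fold change (shPTBP1 minus shControl, edgeR, horizontal) of the 113 tested genes of 9 lists (grey, 1 row per list, list median as a black bar) and of the splicing target each list belongs to (purple). List medians lie between -0.17 and 0.06, and ROBO1 at 0.57 and CD44 at 0.42 are the targets farthest from 0.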

How the data were processed

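RNA of 6 MHCC97H libraries was sequenced from oligo(dT)-selected mRNA with a dUTP kit. The authors deposited, per library and gene, FPKM and whole-number counts. Their notes name cutadapt 1.9, FastQC, HISAT2 2.2.1, StringTie and hg38. How counts were made, and whether by strand, is not given in the sources used here. Of counts from 1 to 40, 32.5% to 34.4% per library were multiples of 4, so the deposited counts were treated as estimated counts, and fragment numbers cannot be read from them. For the 8 targets the ratio of count to FPKM, centred per library, varied between libraries by an SD of at most 0.00333 on the log2 scale, so both hold the same information and none on isoforms. Genes that overlap a target had counts of at most 1.01% of the target's lowest count. Loci are those of the deposited table. Start and end equalled GENCODE 29 in 3 targets and differed in 5.

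Rounded counts were tested over the whole table with edgeR 4.0.16 (R 4.3.3), quasi-likelihood F test, TMM scaling, its filter on low counts, no covariates, and Benjamini-Hochberg adjustment over all genes tested. The paper names no test for its RNA-seq genes. The standard error is the absolute log2 fold change divided by the square root of F, and the 95% interval uses the test's degrees of freedom. The steps were tested on simulated data. Alternatives were DESeq2 1.42.0 and limma 3.58.1 on log2(FPKM + 1), for genes whose mean FPKM was 1 or more, among others, 17 fits in all. The named genes were the 8 targets, PTBP1, the 3 genes of lowest p-value in each list (some are not described), and the gene with the highest Pearson r to each target. RHOA, HBB and the hepatocyte markers were named for a result that turns on them. The members and lists were chosen with earlier results of these data known. Marker levels are CPM of the library total. The replicate numbers were not shown to pair the libraries across genes in general, although both libraries numbered 3 stood apart in some genes. Python 3.11.15, pandas 2.3.3, numpy 2.4.6 and matplotlib 3.10.9 were used. Splicing events were not analysed here.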

Additional observations from a re-analysis of the deposited data

How the results depend on the processing

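Over 17 alternative fits per target, 127 of 136 log2 fold changes kept their sign and stayed short of the adjusted threshold, and 0 passed it (lowest adjusted p = 0.152, for ROBO1 without shControl 3 in edgeR). CD44, MAP2K5, PYCR1 and ROBO1 kept their sign in all 17. BRD1 turned to 0.04 within the libraries numbered 1 and 2, and to 0.02 there with a replicate block, a fit chosen after seeing the data. Leaving out 1 library at a time, DAG1 ranged from -0.65 to 0.47, MAP4K2 from -0.03 to 0.32 and SIRT7 from -0.24 to 0.06. DAG1 was positive without shControl 1 (0.28), shControl 2 (0.32) or shPTBP1 3 (0.47). MAP4K2 was negative without shControl 1 (-0.02) or 2 (-0.03), and SIRT7 positive without shControl 1 (0.01) or 2 (0.06). The 6 genes changed in edgeR became 166 in DESeq2, 63 within numbers 1 and 2, 3 with number 3 as a covariate, 1 in limma without a filter and 0 with a replicate block (all libraries, or numbers 1 and 2), and 2 to 136 when leaving out 1 library, the 136 without shControl 3. An unadjusted threshold gave 1 target in place of 0, and DESeq2 called 1 gene of the dystroglycan list, DTNA, in place of 0. Causes were not tested. Deviations from the group means of same-numbered libraries correlated at -0.01, 0.16 and 0.08, and those of differently numbered ones at -0.14 to 0.05. The numbers were not taken to pair them. The replicate block changed no call of a target at the adjusted threshold. With it, ROBO1 had an unadjusted p of 0.00959 in place of 0.0295 in edgeR (adjusted p = 0.945). CD44 had 0.0166 in place of 0.0707 (adjusted p = 0.956).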
